A study of Mus musculus with 6 samples.

Results

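The Iroquois (Irx) transcription factors were examined in left ventricles of male CD-1 mice, an outbred strain, at 1 year of age. The 6 genes Irx1 to Irx6 were found by their mouse symbols among the 43629 genes in the count files. The family was chosen because Irx2 was already known to be lower in the caffeine group, so the fold changes of the Irx genes are given here as a description, with no test. The pregnant dams of 3 mice had been injected daily with normal saline (vehicle) and those of the other 3 with 20 mg/kg caffeine, an antagonist of adenosine receptors. Injections began at embryonic day 6.5 and, by one field of the labels, ended at day 9.5, while another field puts the end at day 10.5. The study also gave dobutamine, a beta-adrenergic agonist, to offspring of these exposure groups at younger ages, and the sources used here do not say whether the sequenced mice were among them. Litters are not recorded in the labels, so hearts of littermates cannot be told apart from independent ones, and p-values measure only the spread between these samples. Poly(A) RNA was sequenced, and total counts per heart ran from 7613011 to 10483101, with every caffeine total below every vehicle total. Ventricular cardiomyocyte genes dominated all hearts, and the summed CPM (counts scaled to the same library size in every heart) of Myh6, Myl2, Myl3, Tnni3, Tnnt2, Actc1, Ryr2 and Irx4 were between 50600 and 59700 in each.

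Irx proteins are homeodomain transcription factors of the TALE class, which bind DNA and mostly act as repressors or activators together with other cardiac factors. In mammals their genes lie in a pair of clusters that arose by duplication, IrxA with Irx1, Irx2 and Irx4, and IrxB with Irx3, Irx5 and Irx6. In the heart, Irx4 is a marker of ventricular muscle, Irx3 is needed for fast conduction through the His-Purkinje system, Irx5 shapes the gradient of potassium current across the ventricular wall, and Irx1 and Irx2 are expressed in the ventricular septum.

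In GRCm38 the IrxA cluster spans 1312 kb of chromosome 13. Irx1 (ENSMUSG00000060969) lies from 71957921 to 71963723, Irx2 (ENSMUSG00000001504) from 72628820 to 72634198 and Irx4 (ENSMUSG00000021604) from 73260479 to 73269608. The IrxB cluster spans 882 kb of chromosome 8. Irx3 (ENSMUSG00000031734) lies from 91798525 to 91802067, Irx5 (ENSMUSG00000031737) from 92357625 to 92376286 and Irx6 (ENSMUSG00000031738) from 92674288 to 92680956. Irx1 and Irx3 are on the minus strand and the others on the plus strand.

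The 6 genes share a homeobox, which bears on whether a read can be assigned to a single member. The 60 coding bases of Irx2 that were best matched in all other members, from the GENCODE transcripts of GRCm38, are shown for that reason. The 55 bases that are identical in every member are in capitals:
Irx1 (chr13:71960052-71960111, minus strand, exon 2 of 4): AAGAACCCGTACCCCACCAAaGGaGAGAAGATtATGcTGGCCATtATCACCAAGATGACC
Irx2 (chr13:72630733-72630792, plus strand, exon 2 of 5): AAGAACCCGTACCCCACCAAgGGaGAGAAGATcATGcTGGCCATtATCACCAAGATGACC
Irx4 (chr13:73267592-73267651, plus strand, exon 5 of 6): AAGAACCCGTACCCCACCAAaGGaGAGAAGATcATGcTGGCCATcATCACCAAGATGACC
Irx3 (chr8:91800556-91800615, minus strand, exon 2 of 4): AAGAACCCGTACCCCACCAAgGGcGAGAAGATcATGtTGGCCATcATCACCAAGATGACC
Irx5 (chr8:92359696-92359755, plus strand, exon 2 of 5): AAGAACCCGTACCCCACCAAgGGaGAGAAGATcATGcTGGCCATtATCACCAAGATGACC
Irx6 (chr8:92677305-92677364, plus strand, exon 4 of 6): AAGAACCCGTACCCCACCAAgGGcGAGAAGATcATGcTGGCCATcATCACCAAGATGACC
Irx2 and Irx5 are identical over these 60 bases, although they belong to different clusters, and their longest shared coding run was 65 bases. Irx1, Irx4 and Irx6 differ from Irx2 at 2 bases here and Irx3 at 3. The reads were 75 bases long, and Irx2 shared no window of that length with any other member. The only pair with such windows was Irx3 and Irx6, with 14 windows inside a shared run of 88 bases. Reads from those windows match both genes exactly, and how the authors' counting treated them was not tested.

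Irx6 had 0 counts in each of the 6 hearts, which at these depths allows up to 0.284 to 0.42 CPM per heart (3 counts, counting error only). The other 5 members passed the filter on low counts. Their levels were compared between genes as CPM per kilobase of exon, a scale that corrects for gene length. In the vehicle hearts Irx3 had the highest level, 17.0 ± 0.783 (SD, n = 3), followed by Irx4 with 13.8 ± 1.19 and Irx1 with 9.93 ± 2.43. Irx2 (5.65 ± 1.13) and Irx5 (5.0 ± 1.82) were the lowest, and their ranges overlapped. Every other pair of neighbours in this order had ranges that did not overlap. Against all genes tested, the vehicle level of Irx3 was above 81.9% and that of Irx5 above 55.3%, so the detected members sat in the upper part of the genes tested. In the caffeine hearts the order differed. Irx4 (13.8 ± 2.08) and Irx3 (13.1 ± 2.16) overlapped at the top, Irx1 followed with 6.30 ± 1.26 and Irx5 with 3.69 ± 0.105, and Irx2 was lowest at 1.85 ± 0.470. Irx2 was below Irx5 in 3 of 3 caffeine hearts, whereas it was above Irx5 in 2 of 3 vehicle hearts.

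**Figure D1:**
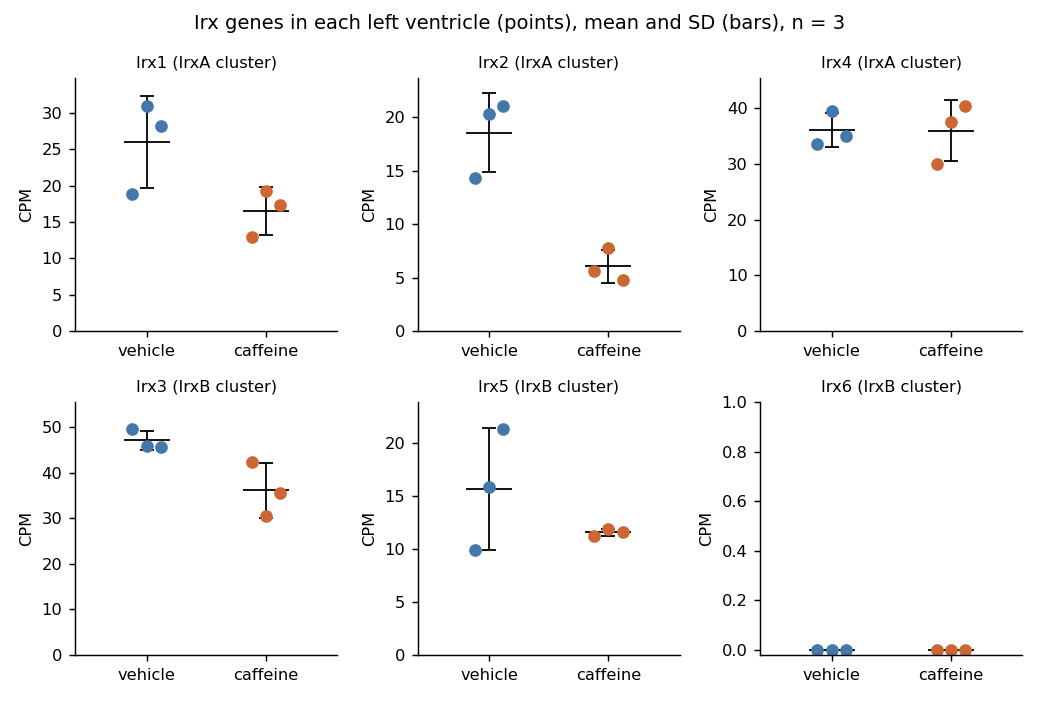
CPM of each Irx gene (vertical axes, each from 0) in 3 vehicle and 3 caffeine hearts, with points for hearts and bars for the mean and SD. The Irx2 points of the caffeine hearts lie between 4.81 and 7.79 CPM and those of the vehicle hearts between 14.3 and 21.1. The Irx4 points of the groups overlap and all Irx6 points are at 0.

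Irx2 had the lowest fold change of the family. Its counts were 146, 214 and 208 in vehicle replicates 1 to 3 and 40, 69 and 41 in caffeine replicates 1 to 3. Scaled to library size these were 14.3, 20.3 and 21.1 CPM with vehicle and 5.60, 7.79 and 4.81 CPM with caffeine. The highest caffeine heart was 6.48 CPM below the lowest vehicle heart. The means were 18.5 ± 3.72 and 6.07 ± 1.54 CPM (SD, n = 3 each), so the caffeine hearts held 32.7% of the vehicle level. The log2 fold change was -1.60 with a standard error of 0.21. At the study's thresholds (adjusted p below 0.05 and absolute fold change above 1.5, here by edgeR's quasi-likelihood test), Irx2 was the 1 member called among the 5 tested. Of all genes tested 0.107% were called in either direction and 0.0229% were called lower, and since it is the gene for which the family was chosen nothing is read from that count. Without vehicle replicate 2, caffeine replicate 1 or caffeine replicate 3 the log2 fold changes were -1.53, -1.55 and -1.45. These still passed the fold change threshold, but the adjusted p of the same edgeR test was no longer below 0.05.

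Irx1, the neighbour of Irx2 in the IrxA cluster, was also lower on average in the caffeine hearts. It measured 18.9, 31.0 and 28.2 CPM in the vehicle hearts and 12.9, 19.3 and 17.4 CPM in the caffeine hearts. The groups overlapped by 1 pair, since caffeine replicate 2 was just above vehicle replicate 1. The log2 fold change was -0.65 with a standard error of 0.20, and it was not called.

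Irx4, the ventricular member at the other end of the IrxA cluster, measured 33.6, 39.6 and 35.1 CPM with vehicle and 30.0, 37.5 and 40.5 CPM with caffeine. The caffeine hearts included both the lowest and the highest value, and the mean with caffeine was 99.7% of that with vehicle. The log2 fold change was -0.0014 with a standard error of 0.13, and its sign changed with the scaling, to 0.00084 with DESeq2-type size factors.

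In the IrxB cluster, Irx3 measured 49.5, 45.9 and 45.7 CPM in the vehicle hearts and 42.3, 30.4 and 35.6 CPM in the caffeine hearts. All caffeine hearts were below all vehicle hearts, by at least 3.41 CPM, and the log2 fold change was -0.39 with a standard error of 0.12, which was not called. Irx3 and Irx2 were the 2 members whose groups did not overlap, and 7.12% of all genes tested had every caffeine heart below every vehicle heart. Since the family was chosen for its low Irx2, nothing is read from this count either. Irx5 measured 9.87, 15.8 and 21.3 CPM with vehicle and 11.2, 11.9 and 11.6 CPM with caffeine. The vehicle hearts enclosed all of the caffeine hearts, and the coefficient of variation was 36.5% with vehicle and 2.85% with caffeine. The log2 fold change of Irx5, -0.43 with a standard error of 0.23, varied with single vehicle hearts, being -0.15 without vehicle replicate 3 and -0.68 without vehicle replicate 1.

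Vehicle replicate 1 lay at the edge of its group in every detected member. It had the lowest vehicle value of Irx1, Irx2, Irx4 and Irx5 and the highest of Irx3. The median log2 fold change of the 5 tested members was -0.43, beside 0.00088 for all genes tested. The IrxA members ranged from -1.60 to -0.0014 in log2 fold change and both tested IrxB members lay inside that range. The difference between the clusters was not tested. In bulk tissue, fewer cells that express a gene and less RNA of it per cell cannot be told apart.

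**Figure D2:**
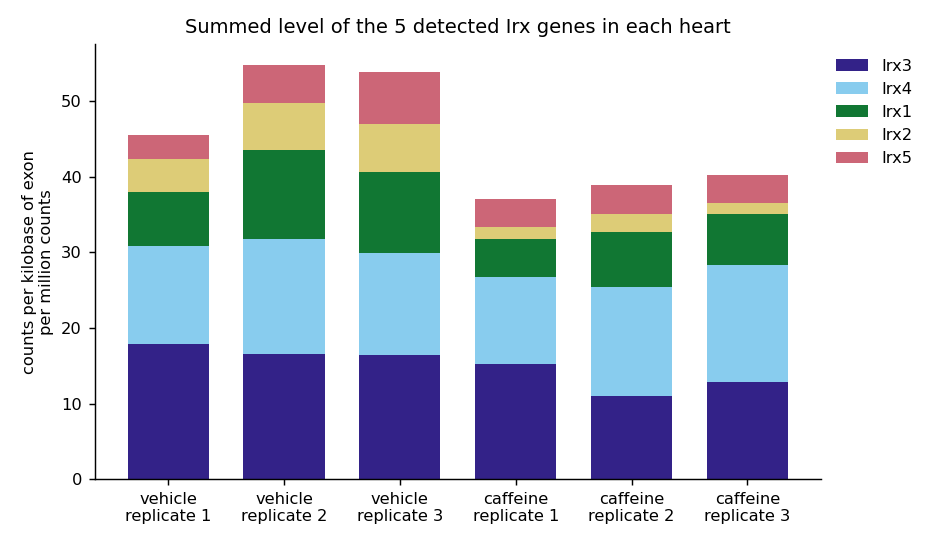
Summed level of the 5 detected Irx genes in each heart, in CPM per kilobase of exon, with 1 colour per gene. The bars of the caffeine hearts end between 37.0 and 40.2 and those of the vehicle hearts between 45.5 and 54.9. The Irx4 segments have a mean length of 13.8 in both groups.

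The 5 detected members together reached 51.4 ± 5.15 CPM per kilobase in the vehicle hearts and 38.7 ± 1.62 in the caffeine hearts (SD, n = 3 each). Irx2 made up 9.55 to 11.9% of this sum with vehicle and 3.64 to 6.10% with caffeine. Irx4 made up 24.9 to 28.3% with vehicle and 31.1 to 38.6% with caffeine. The shares of Irx1, Irx3 and Irx5 overlapped between the groups, and the mean share of Irx3 was 33.4% with vehicle and 33.9% with caffeine. Irx2 thus took a smaller and Irx4 a larger share of the family in every caffeine heart than in any vehicle heart. The mean level of Irx4 itself was 13.8 in both groups, so its larger share reflects the smaller sum. Since the family was chosen for its low Irx2, nothing further is read from these shares.

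Ratios between members of the same heart do not depend on how libraries are scaled. The ratio of Irx2 to Irx4 per length was 0.337, 0.407 and 0.478 in the vehicle hearts and 0.148, 0.165 and 0.0944 in the caffeine hearts. The ratio of Irx2 to Irx1 was 0.604, 0.521 and 0.597 with vehicle and 0.347, 0.322 and 0.221 with caffeine. Irx2 was therefore lower in the caffeine hearts also relative to both of its cluster neighbours, with no overlap. Both ratios contain the Irx2 values for which the family was chosen, so they are a description and hold no test. The ratio of Irx1 to Irx4 was 0.713 ± 0.134 with vehicle and 0.456 ± 0.0492 with caffeine (SD, n = 3 each), also without overlap. The ratios of Irx3 to Irx4, Irx5 to Irx4 and Irx5 to Irx3 overlapped between the groups. Within IrxB, the mean ratio of Irx5 to Irx3 was 0.297 with vehicle and 0.289 with caffeine.

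**Figure D3:**
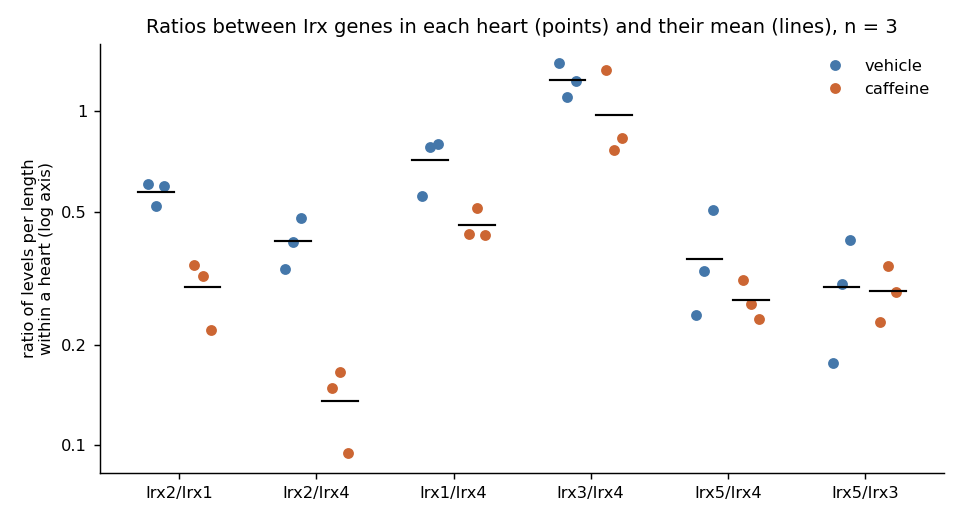
Ratios of levels per length between Irx genes within each heart, on a log axis, with points for hearts (n = 3 per group) and lines for means. The groups separate for Irx2/Irx1 (0.521 to 0.604 with vehicle, 0.221 to 0.347 with caffeine), Irx2/Irx4 and Irx1/Irx4 and overlap for the ratios that involve Irx3 or Irx5.

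The study set the exposure in a period of embryonic DNA methylation, a mark placed on CG dinucleotides, so the CG content before the start of transcription is described here. No methylation was measured in the files used here. RefSeq windows (GRCm38.p6) were given for Irx2, Irx3 and Irx4, and the 250 bases before the start are shown for Irx2 and for Irx4, the neighbours in 1 cluster that differed most in fold change, with CG dinucleotides in capitals:
Irx2 (chr13:72628570-72628819, plus strand): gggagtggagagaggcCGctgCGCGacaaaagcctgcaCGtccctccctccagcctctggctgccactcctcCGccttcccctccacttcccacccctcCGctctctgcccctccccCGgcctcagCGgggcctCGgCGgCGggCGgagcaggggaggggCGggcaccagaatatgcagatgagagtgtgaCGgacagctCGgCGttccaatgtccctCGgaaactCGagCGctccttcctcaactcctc
Irx4 (chr13:73260247-73260496, plus strand): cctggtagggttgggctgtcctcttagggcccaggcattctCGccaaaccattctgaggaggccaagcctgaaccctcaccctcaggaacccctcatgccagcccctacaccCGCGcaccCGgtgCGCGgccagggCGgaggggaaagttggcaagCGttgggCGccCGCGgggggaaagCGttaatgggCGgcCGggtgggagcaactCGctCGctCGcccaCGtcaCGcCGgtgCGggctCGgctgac
The Irx2 window held 19 CG dinucleotides and the Irx4 window 22, against a median of 6 over 32851 windows of the same length, and 19.7% and 14.8% of all windows held as many. The Irx3 window, which lies on annotated exons, held 13. The Irx2 and Irx4 windows had 68.4% and 68.8% G plus C, beside a median of 52.4% over all windows, and the last 18 bases of the Irx4 window lie on annotated exon. The Iroquois binding motif ACANNTGT, which reads the same on both strands, had no match in any of these windows and at least 1 in 6.31% of all windows.

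Genes beside the clusters were examined next, from 1 Mb before the first to 1 Mb after the last Irx gene. Of 59 such genes with a row in the files, 19 were tested and 0 were called, beside 0.107% of all genes tested. The median log2 fold change was 0.02. An unadjusted p under 0.05 in edgeR's quasi-likelihood test was found for 2 (10.5%), beside 8.82% of all genes tested. Between the Irx genes themselves, transcription of other genes was near the limit of detection. Gm20554, a long non-coding RNA gene that lies just upstream of Irx2 on the other strand, had 2 counts over all hearts, and the pseudogene Rpl9-ps4 had 2. In IrxB, the antisense gene Irx3os shares 4.49% of the exon bases of Irx3 and had 2, 4 and 4 counts with vehicle and 2, 9 and 5 with caffeine. Crnde, which starts 2 kb from Irx5, had 24 counts over all hearts, Gm21817 had 2, Gm28515 and Gm28516 had 1 each, and Gm28511 and Gm24254 had 0. The strand setting of the counting is not given in the sources used here, so reads of Irx3 and Irx3os cannot be told apart where they overlap.

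None of the nearest tested genes outside the clusters was called. On the Irx4 side these were the pseudogene Gm10263 (log2 fold change 0.42, SE 0.31, edgeR adjusted p = 0.772) and Ndufs6, a subunit of respiratory complex I (-0.05, SE 0.11). Before Irx1 no gene was tested within 1 Mb. On the Irx3 side, Fto, an RNA demethylase gene, had a log2 fold change of -0.07 (SE 0.08, edgeR adjusted p = 0.866), and beyond Irx6 the matrix metalloproteinase gene Mmp2 had 0.03 (SE 0.09, adjusted p = 0.966). Ces1d, 485 kb beyond Irx6, had the lowest value of all neighbours (-0.69, SE 0.18, adjusted p = 0.262) and was called only with no filter, with edgeR's exact test and with DESeq2.

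**Figure D4:**
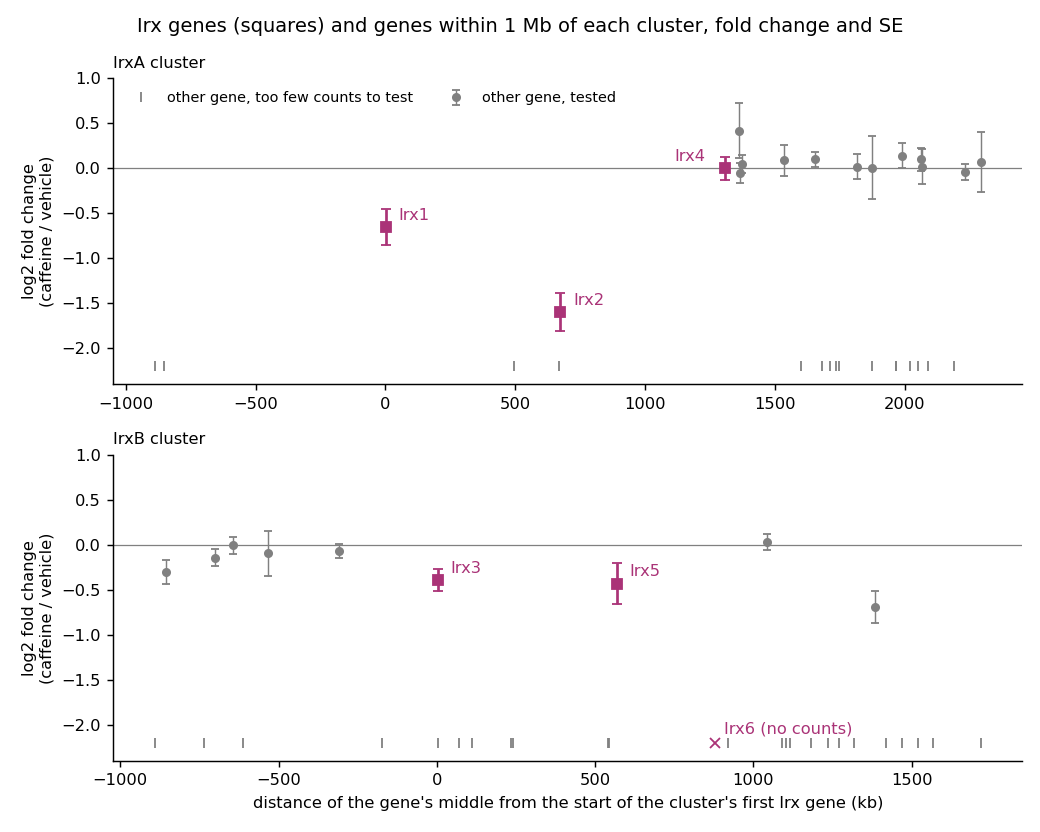
Log2 fold change of caffeine against vehicle with SE (vertical axis) for the Irx genes (squares) and for the other tested genes (circles) within 1 Mb of each cluster, against distance in kb, with ticks for genes with too few counts to test. Irx2 lies at -1.60 while the neighbours lie between -0.69 and 0.42, and Irx6 has no counts.

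Irx factors act on genes of repolarization, electrical coupling and conduction, so a list of 26 such genes was examined. Of these, 23 were tested and 0 were called by edgeR's quasi-likelihood test, beside 0.107% of all genes tested. In that test 10 had an unadjusted p under 0.05 (43.5%, beside 8.82% of all genes tested). By edgeR's exact test 3 were called, and 3 by DESeq2. Fold changes were below 0 for 21 of the 23, with a median log2 fold change of -0.26 beside 0.00088 for all genes tested. For 9 genes every caffeine heart was below every vehicle heart, 39.1% of the 23 tested beside 7.12% of all genes tested. This list, like the lists of transcription factors and TALE genes below, was written with earlier results of these data known. Its shares are therefore a description and hold no test. The lowest was Cntn2, a cell adhesion protein of Purkinje fibres, with 3.91, 7.29 and 13.5 CPM in the vehicle hearts and 0.42, 1.24 and 1.06 CPM in the caffeine hearts. Its log2 fold change was -3.12 (SE 0.51, edgeR adjusted p = 0.0584). The study's own edgeR analysis counted Cntn2 among its differentially expressed genes. Hcn4, the pacemaker channel, had 15.5, 15.9 and 9.83 CPM with vehicle and 7.42, 6.10 and 5.51 CPM with caffeine (log2 fold change -1.12, SE 0.21, edgeR adjusted p = 0.102). Cacna1g, a T-type calcium channel gene, had -1.29 (SE 0.27, adjusted p = 0.135). These 3 genes were those called under one or more of the alternatives.

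None of the genes most directly tied to Irx3 and Irx5 was called. As only 0.107% of all genes tested were called, nothing is read from that. Kcnd2, the potassium channel gene that Irx5 represses together with Smyd1, measured 37.1, 24.8 and 21.4 CPM with vehicle and 28.4, 24.5 and 27.7 CPM with caffeine, with overlap between the groups (log2 fold change -0.05, SE 0.18, edgeR adjusted p = 0.968). Kcnip2, which encodes the accessory subunit of the same current, had a log2 fold change of 0.01 (SE 0.09), and the related channel gene Kcnd3 had -0.42 (SE 0.14, adjusted p = 0.351), with all caffeine hearts below all vehicle hearts. Gja5, the connexin of fast-conducting fibres that Irx3 maintains, had a log2 fold change of -0.05 (SE 0.15, adjusted p = 0.964). Gja1, the connexin of working muscle, had -0.08 (SE 0.15, adjusted p = 0.927).

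The summed conduction markers were lower in every caffeine heart than in any vehicle heart, but not without Cntn2 and Hcn4. The summed level of the 7 Purkinje and conduction markers, among them Cntn2, Hcn4, Gja5 and Tbx3, was 53.4 to 74.0 CPM in the vehicle hearts and 36.7 to 50.2 CPM in the caffeine hearts. Of the 6 tested, 6 had fold changes below 0, beside 49.8% of all genes tested, and 0 were called, beside 0.107%. Gja5 in this list was the gene at -0.05 given above. Without Cntn2 and Hcn4, a sum added after seeing the data, the other 5 markers gave 34.0, 42.1 and 50.7 CPM with vehicle and 36.0, 42.9 and 30.1 CPM with caffeine, and the groups overlapped. All but Tbx3 of the 7 markers are also in the ion channel and conduction list. Summed fibroblast markers were higher with caffeine, 1100 to 1260 CPM against 854 to 1020 CPM, and all 7 had fold changes above 0. The atrial sum was higher too, 270 to 438 CPM against 55.6 to 185 CPM, almost all of it Nppa, while the defining atrial genes Myl7, Sln and Bmp10 were each at or below 0.352 CPM in every heart. Lymphocyte markers were at 0.586 to 0.757 CPM with vehicle and 1.17 to 1.54 CPM with caffeine, and adipocyte markers at 0.709 to 3.13 CPM with vehicle and 0.113 to 0.586 CPM with caffeine, and none of either list passed the filter on low counts. Endothelial, mural, macrophage, epicardial, Schwann cell and erythroid sums overlapped, although all 6 macrophage markers had fold changes above 0. Lung epithelium, a tissue rich in several Irx factors, gave at most 0.84 CPM, with Sftpa1 and Scgb1a1 at 0 throughout. The part of any of these cell types in the Irx values was not tested.

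Transcription factors of the cardiac networks in which Irx proteins act were examined next. Of 25 listed factors 20 were tested and 0 were called, here (beside 0.107% of all genes tested) and under every alternative that was run. In edgeR's quasi-likelihood test 2 (10%, beside 8.82% of all genes tested) had an unadjusted p under 0.05. The median log2 fold change was -0.14, and 17 of the 20 were below 0 (85%, beside 49.8% of all genes tested). For 4 (20%, beside 7.12% of all genes tested) every caffeine heart was below every vehicle heart. Tbx5, a T-box factor of the conduction system, had 31.8, 39.5 and 30.7 CPM with vehicle and 22.8, 22.7 and 25.1 CPM with caffeine, without overlap (log2 fold change -0.53, SE 0.12, edgeR adjusted p = 0.193). Hey2, a factor of compact ventricular muscle, had -0.37 (SE 0.19, adjusted p = 0.620). Nkx2-5 (-0.15, SE 0.10), Gata4 (-0.10, SE 0.11), Hand2 (-0.23, SE 0.13) and Smyd1 (-0.05, SE 0.10) overlapped between the groups, and Hand1 had no counts.

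The other TALE homeobox genes allow a comparison with relatives of the Irx family. Of 12 genes 9 were tested and 0 were called by edgeR's quasi-likelihood test (beside 0.107% of all genes tested) or under any alternative that was run. In the quasi-likelihood test 2 (22.2%, beside 8.82% of all genes tested) had an unadjusted p under 0.05. The median log2 fold change was -0.13. Every caffeine heart was above every vehicle heart for 2 of the 9, beside 7.11% of all genes tested, and below for 1, beside 7.12%. Meis3 had the highest log2 fold change of the list (0.56, SE 0.23, edgeR adjusted p = 0.506), without overlap between the groups. Meis2 had a log2 fold change of -0.31 (SE 0.13, edgeR adjusted p = 0.512) and Tgif1 had 0.38 (SE 0.24, adjusted p = 0.708), both without overlap between the groups. Meis1 (-0.01, SE 0.18) overlapped, and Mkx, an Iroquois-like gene, was near the limit of detection with at most 0.42 CPM.

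**Figure D5:**
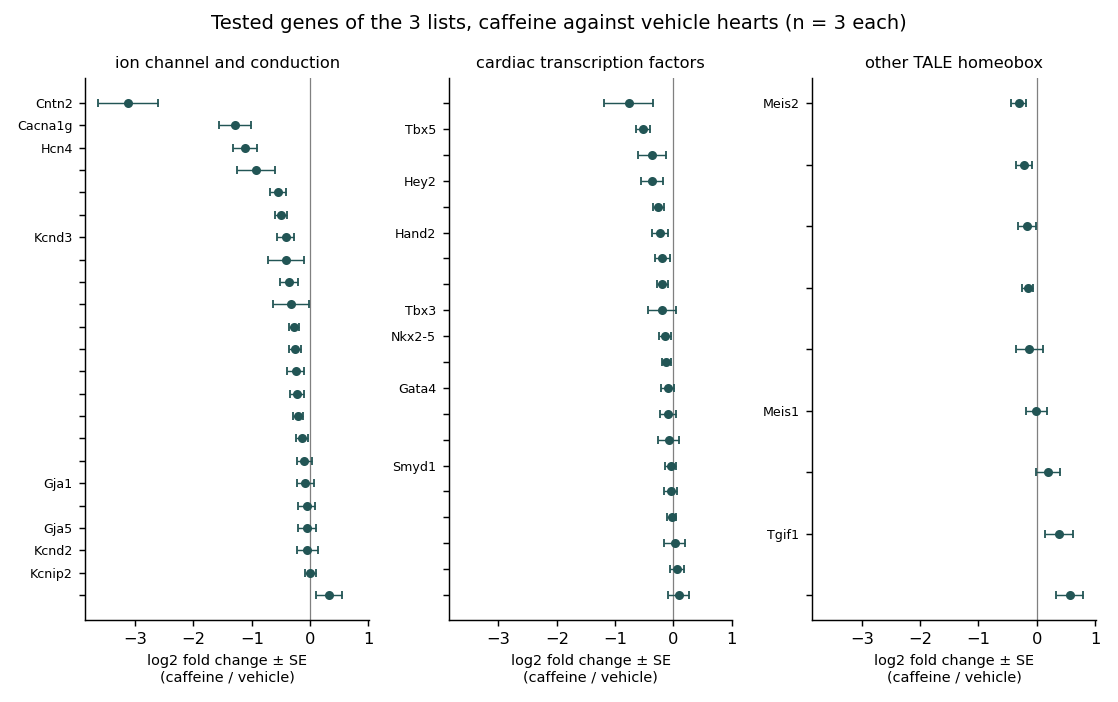
Log2 fold change of caffeine against vehicle with SE (horizontal axes) for the tested genes of the 3 lists, sorted within each panel, with names for most of the genes given in the text. Cntn2 is lowest at -3.12, most ion channel and conduction genes lie left of 0, the cardiac transcription factors lie between -0.77 and 0.09, and the other TALE homeobox genes lie between -0.31 and 0.56.

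The genes whose pattern over the 6 hearts was most like that of Irx2 were ranked by the root mean square difference of log2 CPM, after centring each gene on its own mean. Of 13091 genes ranked, Tspan5, a tetraspanin gene, was closest (0.25), with 20.6, 27.8 and 29.6 CPM with vehicle and 11.8, 11.1 and 9.85 CPM with caffeine. It was followed by Fgf14 (0.31), Ramp1 (0.35), Ccdc62 (0.37) and Pnpla3 (0.38), which had at most 4.64 CPM in any heart. Of the family, Irx1 ranked 35 with a difference of 0.52, Irx5 ranked 332, Irx3 ranked 717 and Irx4 ranked 5412. This order is a description of the same 6 hearts and holds no test.

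Over all 13092 genes tested, 11 were called higher and 3 lower in the caffeine hearts. With library sizes alone in place of TMM scaling the split was 12 higher and 15 lower, and the median log2 fold change of all genes moved to -0.08. The study itself reported more genes in each direction, by edgeR at the same thresholds. Which edgeR test and filter it used is not given in the sources used here, and the cause of the difference was not tested. Irx1, Irx2, Irx3 and Irx5 had log2 fold changes below 0 in all 13 analyses (the one reported and 12 alternatives), and Irx4 was below 0 in 9 and above 0 in 4.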

How the data were processed

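The authors isolated poly(A) RNA from left ventricles, sequenced single-end reads of 75 bases, used FastQC for cleaning and Tophat2 for mapping to mm10 (GRCm38), and counted reads per Ensembl gene with HTSeq. The deposited values are raw counts, not normalized, with 1 file per heart and no pooling. Tool versions and strand settings are not given in the sources used here.

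Groups and replicate numbers came from the sample titles. Members and gene lists were chosen with earlier results of these data known. Counts were filtered with filterByExpr (minimum count 10, minimum total 15), leaving 13092 genes, scaled by TMM and tested by quasi-likelihood in edgeR (glmQLFit, glmQLFTest) on treatment alone. Adjusted p-values are Benjamini-Hochberg values over all genes tested. The standard error is the absolute log2 fold change divided by the square root of F. CPM used TMM library sizes without a prior count, and centred log2 CPM a prior count of 2. Gene names and the union exon length for levels per length came from GENCODE M21, not from the older Ensembl GRCm38 annotation that the study names, and in it 42462 of the 43629 identifiers matched. Total counts set the precision, and 3 counts correspond to 0.284 to 0.42 CPM.

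The text names all Irx genes, called list genes, examples set in advance for each list, genes between and beside the clusters, and the 5 genes most like Irx2. Some list genes are not reported here by name. Cacna1g, Ces1d, Ndufs6, Meis3 and Mef2c were named after their values were seen. Alternatives were scaling by library size only or by DESeq2-type size factors, testing without the filter, edgeR's exact test, DESeq2, a block on the replicate number, leaving out single hearts, a 500 kb window, no fold change threshold and the longest transcript as length. Fits were tested on simulated data. The software was edgeR 4.0.16 and DESeq2 1.42.0 in R 4.3.3, and Python 3.11.15, pandas 2.3.3, NumPy 2.4.6 and Matplotlib 3.10.9.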

Additional observations from a re-analysis of the deposited data

How the results depend on the processing

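Under each of the 12 alternatives, the log2 fold change of every detected Irx gene moved by less than 1 SD of its log2 CPM between replicates (variances averaged over both groups), although in some of them Irx5 and Irx3 moved by more than the SD of their less variable group. Where 1 of 3 hearts was left out this had to hold, because a group mean cannot move that far. For those alternatives the bound therefore says nothing about stability. Leaving out each replicate in turn gave -1.84 to -1.45 for Irx2, -0.83 to -0.50 for Irx1, -0.51 to -0.27 for Irx3, -0.68 to -0.15 for Irx5 and -0.09 to 0.11 for Irx4. Irx2 was called in 9 of the 12, and Irx1 in 1 (no filter). The number of genes called over all genes, 14, was 27 with library size only, 240 with no filter on low counts, 94 with edgeR's exact test and 67 with DESeq2, and ran from 4 (without vehicle replicate 2 or caffeine replicate 3) to 28 (without vehicle replicate 3) when a replicate was left out. The ion channel and conduction list, with 0 called, gave 2 with library size only, 3 with no filter, 3 with the exact test, 3 with DESeq2 and 0 to 2 with a replicate left out (1 without vehicle replicate 1, 2 without vehicle replicate 3). The cluster neighbours, with 0 called, gave 1 with no filter, 1 with the exact test and 1 with DESeq2. The cause was not tested. With the longest transcript as length, the vehicle level of Irx2 was 7.06 in place of 5.65.

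With the replicate number as a block, 40 genes were called over all genes, 2 of the ion channel and conduction list (Hcn4 and Cntn2), and the log2 fold change of Irx2 was -1.61. The numbers gave no sign of pairing in the correlation, across genes, of the hearts' deviations from their group mean. Hearts with the same number had an r between -0.0375 and 0.045, and those with different numbers between -0.0828 and 0.12. Of the 6 hearts, 2 correlated best with their own number. With 3 hearts per group, whose deviations sum to 0, this check cannot exclude a pairing. Depth limits Irx6, Irx3os and Crnde, which had 0, 26 and 24 counts over all hearts.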
